A study of Mus musculus with 4 samples.

Results

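IN12 is a subtype of inhibitory neuron named by the depositors in a single-nucleus RNA-seq atlas of the developing mouse superior colliculus. Its members were the nuclei carrying the deposited subtype label IN12, 111 of 9724 nuclei in all and 111 of the 3459 nuclei of the class Inhibitory Neuron (3.21%, 95% exact binomial interval 2.65 to 3.85%). The tissue came from C57BL/6J mice with no other allele or treatment named, taken at day 19 of embryonic life (E19) or on day 4 (P4), day 8 (P8) or day 21 (P21) after birth. The titles and stage labels give E19, while the protocol text abbreviates the same embryonic day as E10, and E19 was used. Nuclei of several animals were pooled into a single library for each stage and captured with 10x Genomics 3′ v3 chemistry. With 1 library per stage there was no replicate, so no p-value was computed and every interval below covers counting error only.

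The superior colliculus is the midbrain roof structure that turns visual and other sensory maps into orienting movements, and a large part of its neurons release the inhibitory transmitter GABA. GABAergic neurons of the midbrain are specified by selector factors such as Gata2, while Pax7 marks the dorsal midbrain. Neurons of each type then take on their own transcription factors, adhesion molecules and receptors, which differ between types long after transmitter choice is settled.

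The IN12 nuclei numbered 23, 22, 44 and 22 in the libraries of E19, P4, P8 and P21. Their shares of inhibitory neurons were 2.58% (1.64 to 3.84%), 2.98% (1.88 to 4.48%), 4.04% (2.95 to 5.39%) and 2.97% (1.87 to 4.47%), and all 4 intervals overlapped. The summed IN12 counts of unique molecular identifiers (UMIs) were 117243, 151241, 377372 and 240161, so 3 UMIs, the limit that a count of 0 allows, correspond to 25.6, 19.8, 7.95 and 12.5 counts per 1000000 UMIs (CPM). Median UMIs per IN12 nucleus were 5042, 6097, 8107.5 and 10344.5, below those of the other inhibitory neurons in each library (6119.5, 7714, 9352.5 and 14201.5). Depth was higher at each later stage in both, and stage, library, depth and the sex makeup of the pools cannot be told apart: the female-specific RNA Xist stood at 0 UMIs in IN12 at E19 and at 674, 384 and 595 CPM in the later libraries. Median percentages of mitochondrial UMIs in IN12 were 0.945, 0.823, 0.352 and 0.245. Across libraries 9 barcodes occurred more than once, none of them in an IN12 nucleus.

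The defining genes matched the labelled cell type. A UMI of Gad1 or Gad2, the enzymes that make GABA, was found in 109 of 111 IN12 nuclei (98.2%) against 29.2% of 4093 excitatory neurons, whose median depth was higher in each library. Summed Gad2 was 520.3, 423, 578 and 633 CPM in IN12 at E19, P4, P8 and P21. It was 558, 492, 439.6 and 361 CPM in the other inhibitory neurons. Gad1 was 349.7, 165, 193 and 217 CPM in IN12 and 281, 264, 285 and 236 CPM in the others. A Gad1 UMI was found in 73.0% of IN12 and 83.2% of other inhibitory nuclei, or in 30.6% and 45.4% after thinning every nucleus to 2300 UMIs. The vesicular GABA transporter Slc32a1 was 85.3, 99.2, 87.5 and 129 CPM, and the glycine transporter Slc6a5 was at 0 UMIs in every library. Pax7 was detected in 78 IN12 nuclei (70.3%, 60.9 to 78.6%), against 36.8% of other inhibitory and 2.27% of excitatory nuclei. After the same thinning it was found in 38 IN12 nuclei and in 17.7% of the other inhibitory ones. Slc17a6 or Slc17a7, the vesicular glutamate transporters, had a UMI in 17.1% of IN12 and 19.7% of other inhibitory nuclei, against 87.7% of excitatory ones.

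Markers of other cell types were far below their home classes in IN12. The 6 microglial markers summed to 34.1 to 41.6 CPM in IN12, close to the 34.0 to 37.7 CPM of other inhibitory neurons, against 2989.9 to 4159 CPM in microglia, and C1qb was at 0 in 3 libraries. All 5 markers of dividing cells were at 0 at E19 and P21. The 6 endothelial and pericyte markers summed to 51.2, 0, 7.95 and 8.33 CPM in IN12 against 15.4, 14.8, 13.9 and 5.97 CPM in the other inhibitory neurons and 4867 to 10273.6 CPM in their home class. The 8 leptomeningeal and epithelial markers summed to 68.2, 152, 39.7 and 16.7 CPM in IN12, against 33.7, 141, 41.9 and 18.3 CPM in the others and 2069.8 to 4988 CPM at home. Both lists were therefore above the other inhibitory neurons at E19, and their part in the E19 values was not tested. The 8 astrocyte markers summed to 307, 278, 334 and 587 CPM against 4476 to 13813 CPM in astrocytes, with Aldh1l1 at 0 in 3 libraries. The 9 oligodendrocyte lineage markers summed to 93.8, 52.9, 82.1 and 433 CPM in IN12, and the other inhibitory neurons stood at 85.4, 81.3, 83.4 and 333 CPM. The deposited cluster 3 held 110 of the 111 IN12 nuclei among its 477, with 173 of IN5, 116 of IN11 and 64 of IN1, so the label is finer than the deposited cluster. In the deposited reference labels, 96 IN12 nuclei (86.5%) carried the Vectorseq label 28, which only 97 nuclei of the whole series carried. A second set, Transseq, put 79 IN12 nuclei (71.2%) under ISC5, a label of 2086 nuclei, with 18 under ESC2 and 14 under ESC1.

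Gm32884, a long non-coding RNA gene at chr7:128795194-128928013 on the plus strand (mm10), set IN12 apart most sharply. Its level in IN12 was 409, 436, 488 and 566 CPM at E19, P4, P8 and P21. In the other inhibitory neurons it was 2.91, 6.73, 3.36 and 3.80 CPM. The lowest IN12 library was thus above the highest level in any other subtype, 77.6 CPM in IN4 at P4. The log2 ratios, formed on CPM plus 5, ran from 5.23 to 6.02. It was detected in 85 of 111 IN12 nuclei (76.6%, 67.6 to 84.1%) and in 1.64% of other inhibitory nuclei; after thinning, the counts were 65 IN12 nuclei and 0.777%. RefSeq (GRCm38.p6) lists 2 starts for this gene, both inside the interval above and on the plus strand. No window here covers the start of that interval, and which start IN12 uses was not tested. The 300 bases around each RefSeq start, 250 before and 50 after, are shown because this gene marks the subtype. Capitals mark AGATAA or its reverse complement TTATCT, the core bound by GATA factors.

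Gm32884 start at chr7:128854694-128854993: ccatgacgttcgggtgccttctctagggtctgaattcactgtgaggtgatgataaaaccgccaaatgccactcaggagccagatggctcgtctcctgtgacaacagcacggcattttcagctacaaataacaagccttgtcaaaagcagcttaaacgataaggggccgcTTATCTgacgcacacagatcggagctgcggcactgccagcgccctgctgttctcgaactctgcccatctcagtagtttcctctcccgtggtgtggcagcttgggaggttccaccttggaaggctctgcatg

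Gm32884 start at chr7:128856102-128856401: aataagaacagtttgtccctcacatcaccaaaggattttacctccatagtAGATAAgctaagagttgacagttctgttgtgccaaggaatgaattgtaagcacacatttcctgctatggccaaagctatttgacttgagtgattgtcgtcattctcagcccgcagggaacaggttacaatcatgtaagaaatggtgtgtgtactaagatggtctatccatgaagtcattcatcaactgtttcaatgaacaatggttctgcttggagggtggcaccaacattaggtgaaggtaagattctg

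Each window held 1 such match. Among all 32851 RefSeq promoter windows of this length, 11.2% held AGATAA on either strand, and 3 of the 30 windows of genes higher in IN12 did, both of Gm32884 and 1 of Specc1. The letters TGCTGAC, part of the site bound by large Maf factors, occurred in 1 of these 30 windows (Pde1c) against 4.67% of all windows. The tables matched 23 of the 31 higher genes. The matches are near their background share and describe letters in these windows alone.

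The transcription factor gene Maf (chr8:115682942-115707794, minus strand) was the protein-coding gene with the largest difference. Maf stood at 913, 760.4, 811 and 1103 CPM in IN12 and at 71.9, 69.8, 68.5 and 76.9 CPM in the other inhibitory neurons (log2 ratios 3.58, 3.36, 3.47 and 3.76). No library of IN12 overlapped any other inhibitory subtype, the next being IN9 with 234.7 CPM at P21. Among all subtypes only microglia were higher, at E19, P4 and P8 (1168, 1213 and 1027 CPM), and the low microglial markers in IN12 are given above. Maf was found in 21 of 23, 19 of 22, 37 of 44 and 22 of 22 IN12 nuclei. Maf and Gm32884 occurred together in 79 IN12 nuclei (71.2%, 61.8 to 79.4%), against 24 of 3348 other inhibitory nuclei (0.717%) and 8 of 4093 excitatory ones (0.195%). Those 24 nuclei were spread over 9 subtypes with at most 4 in any. With Ccdc88c added, 74 IN12 nuclei held all 3 genes and 3 held none.

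In all, 31 of the 1238 genes at 100 CPM or more in every IN12 library were at least 2-fold higher than in the other inhibitory neurons in all 4 libraries (percent called 2.5). In the other direction, 64 of 1550 genes at that level in the other neurons were at least 2-fold lower in IN12 (percent called 4.13). Under a filter blind to direction, a mean of both sides of at least 50 CPM, the counts were 38 and 85 of 3853 genes (0.986% and 2.21%). Because the subtypes were clustered on these genes, the differences are a description of what the label holds. Of the 31 higher genes, 21 were highest among the 12 inhibitory subtypes in every library, and of the 64 lower genes 11 were lowest among them. For 10 of the higher genes IN12 was also the highest of all subtypes with 10 or more nuclei: Gm32884, Ccdc88c, 2700069I18Rik, Adarb2, Adamts17, Cdh12, Ptprt, Zfhx3, Gm47757 and Zfpm2.

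**Figure D1:**
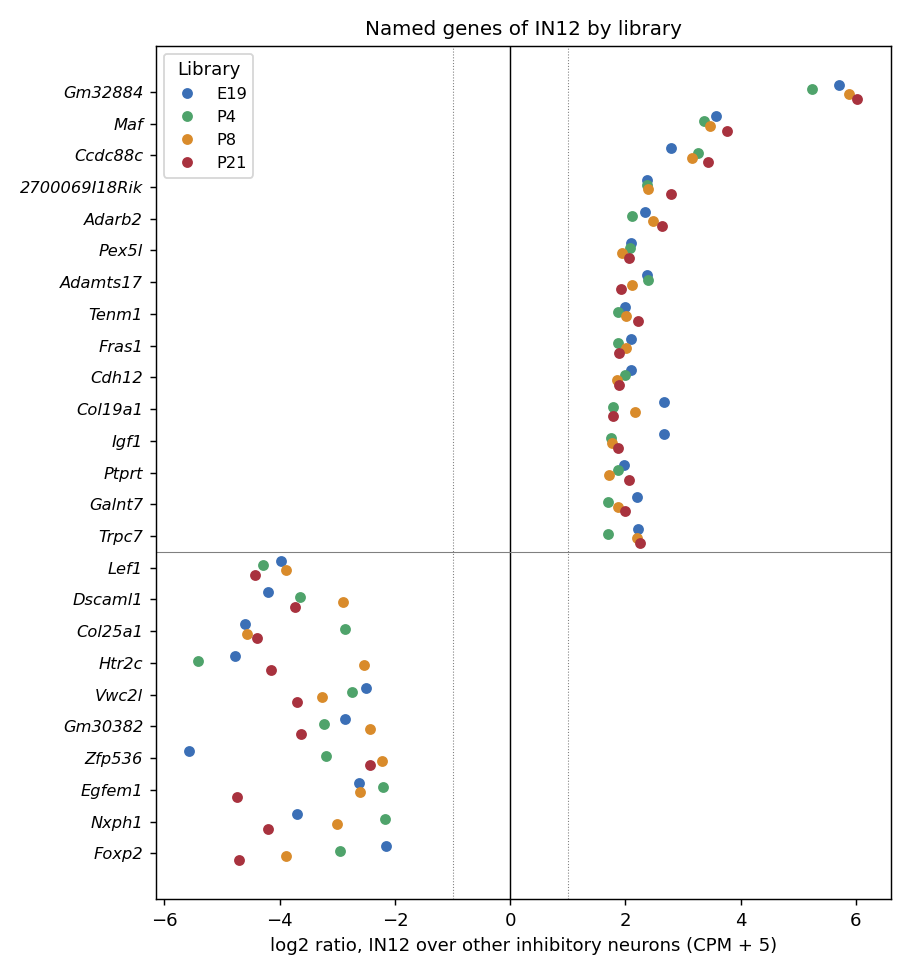
Log2 ratio of summed CPM (plus 5) in IN12 over all other inhibitory neurons for the 15 genes with the largest and the 10 with the most negative ratio that held in every library (1 point per library, dotted lines at 2-fold). Gm32884 lies between 5.23 and 6.02 in all 4 libraries, while lower genes such as Htr2c and Zfp536 spread more, with few or no IN12 UMIs behind some of their points.

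The remaining named higher genes are given by their roles. Adarb2 (chr13:8202866-8768747, plus strand), a catalytically inactive relative of the RNA-editing deaminases that is widely used as an interneuron marker, stood at 11583, 9865, 10836 and 9972 CPM in IN12 and at 2273, 2286, 1943 and 1601 CPM in the other inhibitory neurons. All 111 IN12 nuclei held Adarb2 UMIs. IN7 came nearest, at 10561 CPM at E19 and 4055 CPM at P21, so the gap between IN12 and IN7 was narrow at E19 and wide at P21. IN5 followed, at 6480 CPM at E19 and 3678 CPM at P21.

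Ccdc88c, which encodes a Dishevelled-binding regulator of Wnt and G-protein signalling, was 426, 536, 583 and 391 CPM in IN12 against 57.7, 51.5, 61.0 and 31.6 CPM. The antisense RNA 2700069I18Rik was 708, 569, 657 and 408 CPM against 133, 106, 122 and 54.8 CPM. It overlaps Zfhx4 on the opposite strand, and Zfhx4 itself was 1237, 701, 763 and 558 CPM against 437, 335, 412 and 323 CPM. Its relative Zfhx3, another zinc-finger homeobox factor, was 8111, 5085, 5756 and 3781 CPM in IN12. The insulin-like growth factor gene Igf1 was 230.3, 139, 185 and 249.8 CPM against 32.2, 37.5, 51.3 and 64.8 CPM, and Trpc7, a cation channel, was 299, 218, 281 and 104 CPM against 59.9, 63.7, 57.1 and 17.9 CPM. The rule that picked these genes, other than Zfhx4, already required IN12 to be above the pooled other inhibitory neurons at every stage.

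Adhesion genes included the teneurin Tenm1, a synaptic partner of latrophilins, at 1757, 1732, 1563 and 1661 CPM in IN12 against 436, 470.5, 385 and 353 CPM. The cadherin gene Cdh12 was 1817, 2036, 2324 and 2848 CPM against 422, 508, 637 and 768 CPM. Ptprt, a receptor tyrosine phosphatase with homophilic adhesion, stayed between 3735 and 4376 CPM in IN12. Pex5l was 333, 536, 490.2 and 991 CPM against 73.6, 122, 124 and 234 CPM, although the excitatory subtype EN12 was higher in every library. Fras1, Adamts17 and Col19a1 encode extracellular matrix proteins or a matrix protease, and the log2 ratios of all 3 were between 1.78 and 2.66 in every library. IN10 or IN11 exceeded IN12 in Fras1 at E19, P4 and P21, and IN11 exceeded it in Col19a1 at P4, P8 and P21. Galnt7, a mucin-type glycosyltransferase, had log2 ratios of 1.70 to 2.20.

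**Figure D2:**
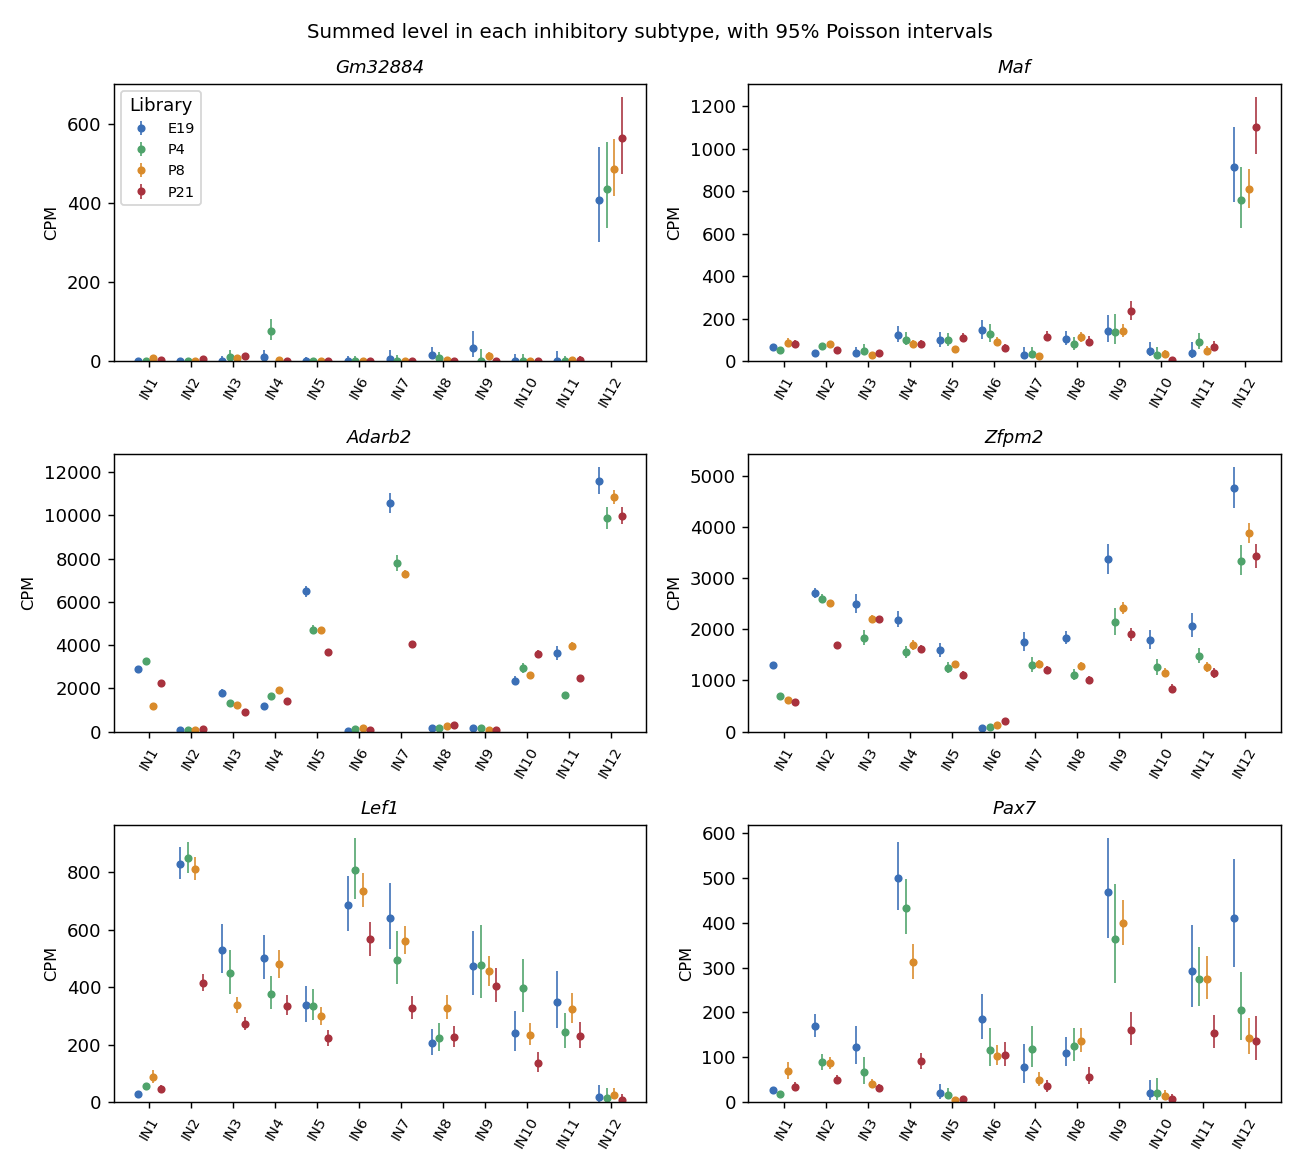
Summed CPM of 6 genes in each of the 12 inhibitory subtypes, 1 point per library with its 95% Poisson interval (counting error only). Gm32884 and Maf are high in IN12 alone among these subtypes. Adarb2 is highest in IN12 or near it in IN7, followed by IN5, with lower levels in several others. Zfpm2 is graded, Lef1 is lowest in IN12 with IN1 next, and Pax7 is shared with IN4, IN9 and IN11.

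Among the 10 midbrain GABAergic selector and patterning factors at 50 CPM or more, 2 were higher in IN12 and 3 lower. Over all 3853 genes at that filter, 0.986% were higher and 2.21% lower. The median log2 ratio of the list was 0.19, against -0.03 over all 3853 genes. Zfpm2 (chr15:40655035-41104592, plus strand), the Gata cofactor, was 4751, 3339, 3872 and 3431 CPM in IN12 and 1777, 1300.3, 1625 and 1352 CPM elsewhere. Sox14 was 196, 99.2, 148 and 91.6 CPM against 47.7, 34.3, 48.8 and 24.5 CPM. IN12 was the highest inhibitory subtype in Sox14 at E19, P8 and P21, while IN3 was above it at P4 (114 CPM). At E19, IN9 (156 CPM) and IN3 (146 CPM) lay inside the IN12 interval (124 to 294 CPM). Gata3 was near the level of the others (179, 126, 169.6 and 91.6 CPM against 149, 128, 119 and 79.9 CPM), while Gata2 had at most 3 UMIs per library. Pax7 itself was 409, 205, 143 and 137 CPM in IN12 against 119.9, 95.7, 110.3 and 54.0 CPM, ranking 3, 4, 4 and 3 among the 12 subtypes.

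Lef1 (chr3:131110471-131224356, plus strand), a transcription factor of the Wnt pathway, headed the genes that were lower in IN12. It had 2, 2, 10 and 2 UMIs in IN12, which is 17.1, 13.2, 26.5 and 8.33 CPM, against 343, 351, 464 and 283 CPM in the other inhibitory neurons. IN12 was the lowest of the 12 subtypes in every library. IN1 came next, at 28.1, 57.7, 88.2 and 46.7 CPM, and at E19 it lay inside the IN12 interval (2.07 to 61.6 CPM). Lef1 was detected in 9.91% (5.05 to 17.0%) of IN12 against 72.0% of other inhibitory nuclei. Tfap2b, a transcription factor of the AP-2 family, was 93.8, 26.4, 34.4 and 0 CPM in IN12 against 365, 213, 269 and 89.4 CPM, and it was similarly low in IN7, IN10 and IN11 (in IN11 47.7, 22.6, 17.0 and 0 CPM). Meis2, a homeobox factor, was 76.8, 66.1, 50.4 and 33.3 CPM against 409, 256, 373 and 337 CPM. Meis2 was highest in IN3, IN4 and IN10 (1433, 509 and 276 CPM at P21), and IN12 was above IN2, IN5, IN7, IN8, IN9 and IN11 in at least 3 libraries.

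Of 9 other neuronal factors, Maf was higher and Foxp2 and Nfib were lower in IN12 in every library. Over all 3853 genes at the same filter, 0.986% were higher and 2.21% lower. Foxp2 was 119, 52.9, 34.4 and 12.5 CPM in IN12, the last from 3 UMIs, against 548, 445, 581 and 453 CPM in the pooled others. The log2 ratios were -2.15, -2.96, -3.89 and -4.71. Within each other inhibitory subtype Foxp2 was also lower at P21 than at E19, as in IN6 (1343 and 1145 CPM at E19 and P21) and IN4 (161 and 55.5 CPM). The pool mixes subtypes with unlike levels in unlike shares per library, and the part of this in the ratios was not tested. Foxp2 was similarly low in IN11 (68.2, 26.3, 21.3 and 22.0 CPM) and in IN9 (58.5, 89.0, 18.8 and 29.3 CPM), so its low level was shared with other subtypes. Nfib, a nuclear factor I gene, was 119, 26.4, 5.30 and 4.16 CPM against 403, 227, 179.9 and 179 CPM.

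The lower genes also included synaptic and surface genes. Nxph1, a secreted neurexin ligand, was 170.6, 390.1, 217 and 54.1 CPM in IN12 against 2281, 1774, 1775 and 1079.6 CPM. It was lower still in IN7 in every library (72.8, 67.3, 68.4 and 35.1 CPM) and in IN4 and IN11 at E19, P4 and P8. The IN12 UMIs came from 10, 6, 20 and 7 nuclei, and without the nucleus richest in Nxph1 in each library the mean log2 ratio was -4.66. The serotonin receptor gene Htr2c was at 0, 0, 21.2 and 25.0 CPM against 132, 209, 148 and 527 CPM. It was similarly low in IN9 (0, 8.09, 9.38 and 48.2 CPM). IN3 (16.6, 22.1, 12.5 and 69.2 CPM) and IN7 (10.4, 25.2, 18.7 and 85.5 CPM) were also low, while IN10 reached 2627 CPM at P21. The kainate receptor subunit Grik2 was 358, 674, 379 and 429 CPM against 2466, 2338, 2383 and 1967 CPM, with Grik3, Grm3 and Grm8 also lower among the 19 glutamate receptor genes at 50 CPM and none higher (4 lower in all, or 5 under median-of-ratios scaling). Of 35 axon guidance genes 5 were lower in every library (Plxna2, Plxna4, Slit2, Robo1 and Unc5d) and none was higher. Robo1, a Slit receptor, was 495, 331, 360.4 and 112 CPM against 1666, 1366, 1039.5 and 868 CPM. Of 31 neurexin ligands and other synapse organisers, Tenm1 was higher and Nxph1, Adgrl2 and Ntng1 were lower. Dscaml1 and Col25a1, a homophilic adhesion protein and a membrane collagen, had log2 ratios of -2.90 or below and -2.87 or below in each library. No gene of the GABA transmitter list (6), the GABA-A and glycine receptor list (15) or the potassium channel list (28) met the rule in either direction. At the same filter 0.986% of 3853 genes were higher and 2.21% lower, so a count of 0 in lists of this size is near the background.

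Peptide genes at 50 CPM or more were few. Somatostatin, Sst, was 708, 145, 66.3 and 49.97 CPM in IN12 against 221, 57.9, 31.4 and 20.2 CPM, above the pooled others in each library but just short of 2-fold at P8 (log2 0.97). IN4 was above IN12 in every library (1122, 377, 203 and 97.0 CPM), and IN8 was above it at E19 and P4. Its UMIs in IN12 came from 39 of 111 nuclei (35.1%), against 21.4% of other inhibitory nuclei. Prepronociceptin, Pnoc, was 162, 66.1, 50.4 and 83.3 CPM against 91.9, 26.9, 19.0 and 11.6 CPM. Neither met the 2-fold rule in all libraries.

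The astrocyte list held 1 gene that was higher in IN12, the sodium bicarbonate cotransporter Slc4a4, at 111, 132, 135 and 466 CPM against 30.8, 35.0, 55.8 and 63.0 CPM. It was present in 14 of 22 IN12 nuclei at P21, and its log2 ratio of P21 over E19 was 2.02, or 0.77 after thinning. Without it the other 7 markers summed to 196, 145, 199 and 121 CPM in IN12 and to 199, 198, 202 and 111 CPM in the other inhibitory neurons. In the list of mature neuron genes only Specc1 was higher (367, 251, 416 and 666 CPM against 47.1, 56.4, 64.1 and 330.1 CPM), and its P21 log2 ratio of 1.00 fell below the rule under median-of-ratios scaling.

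By correlation of log2(CPM + 5) over 2696 to 3303 genes per library, IN12 was most like IN9 (mean r 0.814 over 4 libraries, SD 0.036) and IN1 (0.814, SD 0.031), ahead of IN5 (0.801) and IN2 (0.797). IN1 was above IN5 and IN2 in all 4 libraries, while IN9 was below both at P4, and the points share depth, since the summed count differs between subtypes. With genes down to 50 CPM included, IN1 came out nearest and IN9 was ranked 4. The deposited clusters differ from the IN9 ranking. Cluster 3, with 110 IN12 nuclei, held 173 nuclei of IN5, 116 of IN11 and 64 of IN1 but 1 of IN9. The genes that separated IN12 from IN9 were Adarb2 (169, 154, 100.0 and 75.4 CPM in IN9), Gm32884, Trhde, Fras1 and Maf on the higher side. On the lower side they were Nxph1 (8858, 9599, 8438 and 4212 CPM in IN9), Lef1, Tfap2b, Gm30382 and Kit. From IN1 it was separated by Gm32884, Ccdc88c, Maf, Itpr1 and Igf1 on the higher side and by Dscaml1, Htr2c, Pld5, Gm30382 and Vwc2l on the lower side. Gm32884 and Maf appear in both higher lists.

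Between E19 and P21, 400 of 2573 genes compared in IN12 were at least 2-fold higher at P21 (15.5%) and 439 at least 2-fold lower (17.1%), each at 100 CPM or more and in 5 or more nuclei at its higher stage. With a mean of both stages of at least 50 CPM the shares were 13.5% and 14.6% of 3965 genes. Median-of-ratios scaling shifted the median by 0.10 log2 and gave 486 higher and 350 lower genes. In the other inhibitory neurons, whose sums are far deeper, 180 of 2357 genes were higher (7.64%) and 240 lower (10.2%). How much of the larger share in IN12 comes with its lower count was not tested. The subtypes in the pool of other inhibitory neurons also hold unlike parts of its UMIs in each library. How much of the pooled stage ratios here and below comes with that makeup was not tested. Of the IN12 genes, 132 were higher and 245 lower in both groups, and 1, Fam19a1, went opposite ways.

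The list of immature neuron and cytoskeleton genes was lower at P21 in IN12 in 16 of its 20 genes at 50 CPM or more, under both scalings. On CPM, 14.6% of all 3965 genes were lower. The median log2 ratio of the list was -3.46, against -0.03 over all 3965 genes and -2.62 for the same list in the other inhibitory neurons. Median percentages of UMIs from ribosomal protein genes in IN12 were also lower at each later stage (0.754, 0.465, 0.276 and 0.175), as did the mitochondrial ones given above, and their part in the result was not tested. Tubb2b, a tubulin of growing neurites, was 1186, 509, 207 and 0 CPM at E19, P4, P8 and P21, which is at least 94.9-fold lower at P21 against the limit of 3 UMIs. Nnat, a membrane proteolipid of developing neurons, was 972, 575, 299 and 16.7 CPM. Tubb5 was 716, 409.9, 191 and 12.5 CPM, the last from 3 UMIs. The microtubule destabiliser Stmn1 was 734, 311, 151 and 20.8 CPM, and the actin-sequestering Tmsb10 was 606, 264, 135 and 20.8 CPM. Every one of these was lower in each successive library. Marcksl1 and Pafah1b3 fell from 18 and 19 UMIs in the E19 library to 0 in the last (at least 12.3-fold and 13.0-fold lower against the same limit). These folds and that of Tubb2b leave out the counting error at E19. The maternally expressed RNA Meg3 was the exception of the list, at 5774, 10639, 14249 and 15423 CPM. In the other inhibitory neurons 10.2% of all 2357 genes compared were lower at P21, and 245 of the 439 lower genes of IN12 were lower in both groups. Of the 12 genes with the largest decreases, 11 were also at least 2-fold lower at P21 in the other inhibitory neurons. The remaining gene was Ankfn1, at 102, 52.9, 23.8 and 0 CPM in IN12 and 118, 137, 162 and 99.6 CPM elsewhere, with 12 UMIs in IN12 at E19.

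**Figure D3:**
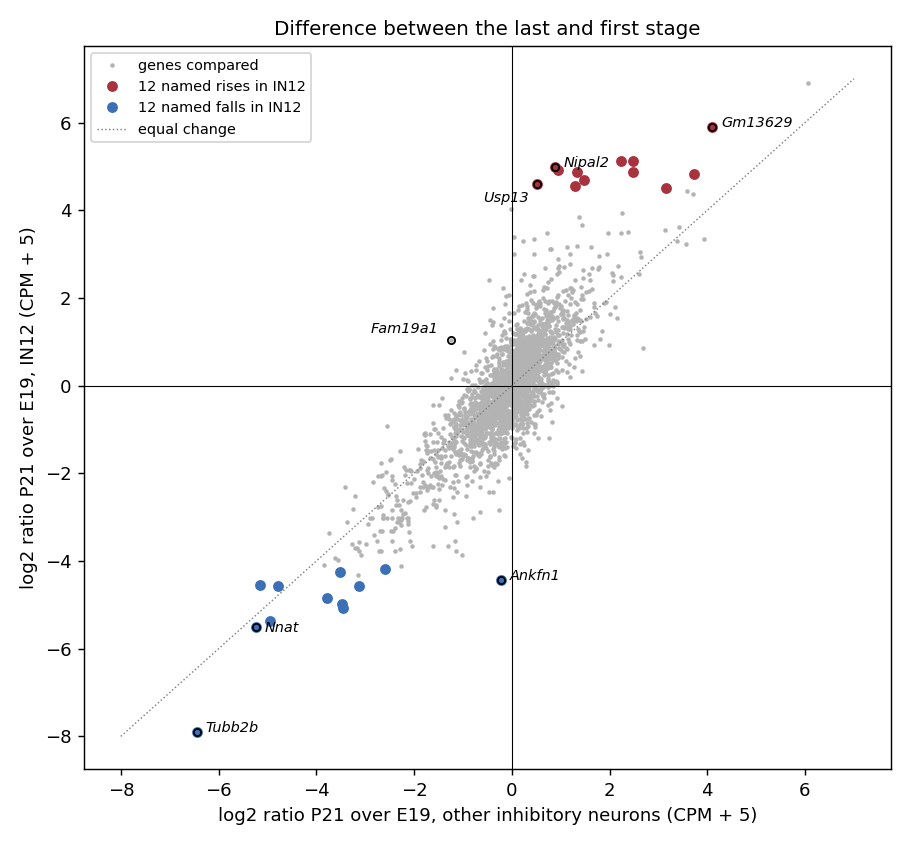
Log2 ratio of P21 over E19 (CPM plus 5) in IN12 against the same ratio in the other inhibitory neurons, 1 point per gene of the 2573 compared. The named decreases other than Ankfn1 lie at the lower left in both groups, the named increases lie above the line of equal change, where E19 counts of IN12 were 0, and Fam19a1 lies in the opposite quadrant; the unlabelled point at the upper right is Xist, kept out of the named genes.

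The 12 genes ranked with the largest increases all had 0 UMIs at E19 in IN12, so their folds are lower bounds and their ranking follows from that 0. Gm13629, an RNA antisense to the sodium channel gene Scn9a, was 0, 13.2, 21.2 and 296 CPM, at least 11.6-fold higher at P21. Scn9a itself was 154, 192, 119 and 29.1 CPM, and the same pattern held in the other inhibitory neurons (Gm13629 7.70, 12.8, 17.4 and 212 CPM). The thyroid hormone receptor gene Thrb was 0, 59.5, 109 and 170.7 CPM, and Dlc1 was 0, 79.3, 58.3 and 170.7 CPM, both at least 6.67-fold higher. The synaptotagmin gene Syt2, a calcium sensor of fast release, was 0, 19.8, 31.8 and 142 CPM, at least 5.53-fold higher. Htr1f, a serotonin receptor, was 0, 13.2, 21.2 and 146 CPM, at least 5.70-fold higher. Nipal2, Uri1, BC030499, Ypel2, Usp13, Myo6 and Fmn1 were at least 4.23-fold to 6.02-fold higher. Of the 12, 9 were also past 2-fold in the other inhibitory neurons, beside 132 of all 400 genes higher in IN12. In those other neurons 7.64% of all 2357 genes compared were higher. Nipal2 was already at 165 CPM at P4, and its log2 ratio of P21 over P4 was -0.10.

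Receptor and channel genes shifted in both directions. The NMDA receptor subunit gene Grin2a was 264, 350.4, 429 and 1212 CPM in IN12 and 321, 485, 562 and 774 CPM elsewhere. At P21, 140 of its 291 IN12 UMIs came from 1 nucleus, and without the richest nucleus per library the log2 ratio of P21 over E19 was 1.84 in place of 2.18. Grin2b, the subunit that prevails before birth, was 691, 661, 596 and 233 CPM (log2 ratio -1.55, counting interval -2.09 to -1.06). Among the 33 axon guidance genes 16 were lower at P21 and 1 higher, with a median log2 ratio of -0.98, or 14 and 1 under median-of-ratios scaling. Over all 3965 genes at the same filter, 14.6% were lower and 13.5% higher. In the other inhibitory neurons the median log2 ratio of the same guidance genes was -0.66. Plxnc1, a semaphorin receptor, was 188, 79.3, 101 and 8.33 CPM, and Efnb3, an ephrin, was 111, 46.3, 29.1 and 8.33 CPM. Epha6, an ephrin receptor, was the member that was higher, at 205, 708, 625 and 791 CPM.

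Of 34 synapse organisers 8 were higher at P21 and 4 lower, beside 13.5% higher and 14.6% lower among all 3965 genes. Clstn2, a calsyntenin, was 34.1, 390.1, 498 and 408 CPM in IN12 while the others stayed between 347 and 441 CPM. Of 27 potassium channel genes 6 were higher and 1 lower, and of 14 GABA-A and glycine receptor genes 4 were higher and 1 lower. Under median-of-ratios scaling the higher and lower counts of these 3 lists were 8 and 2, 7 and 1, and 6 and 1. Kcnj3, an inward rectifier, was 17.1, 99.2, 82.1 and 191.5 CPM. Gabrg3, a GABA-A receptor subunit, was 307, 602, 620.1 and 774 CPM.

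No gene of the selector list was higher at P21, and 5 of 9 were lower, or 3 of 9 under median-of-ratios scaling. Over all 3965 genes at the same filter, 13.5% were higher and 14.6% lower. The median log2 ratio of the list was -1.06 in IN12 and -0.74 in the other inhibitory neurons. Pax7 was 409 CPM at E19 and 137 CPM at P21 (log2 ratio -1.54, counting interval -2.26 to -0.91), while in the other inhibitory neurons its log2 ratio was -1.08. Sst was the peptide gene with the largest difference, 708 CPM at E19 and 49.97 CPM at P21 (log2 ratio -3.70, -4.83 to -2.94), against -3.16 in the others. Maf (log2 ratio 0.27, -0.06 to 0.61) and Gm32884 (0.46, -0.02 to 0.97) had counting intervals that included 0. Adarb2 was also near level (-0.22, -0.31 to -0.12). Of the 15 named higher genes, only Pex5l (1.56) and Trpc7 (-1.48) were past 2-fold between these stages. Among all 2573 genes compared between stages, 15.5% were higher and 17.1% lower. The rule that named the 15 required 100 CPM or more in IN12 in every library, so their presence at both stages was built in.

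**Figure D4:**
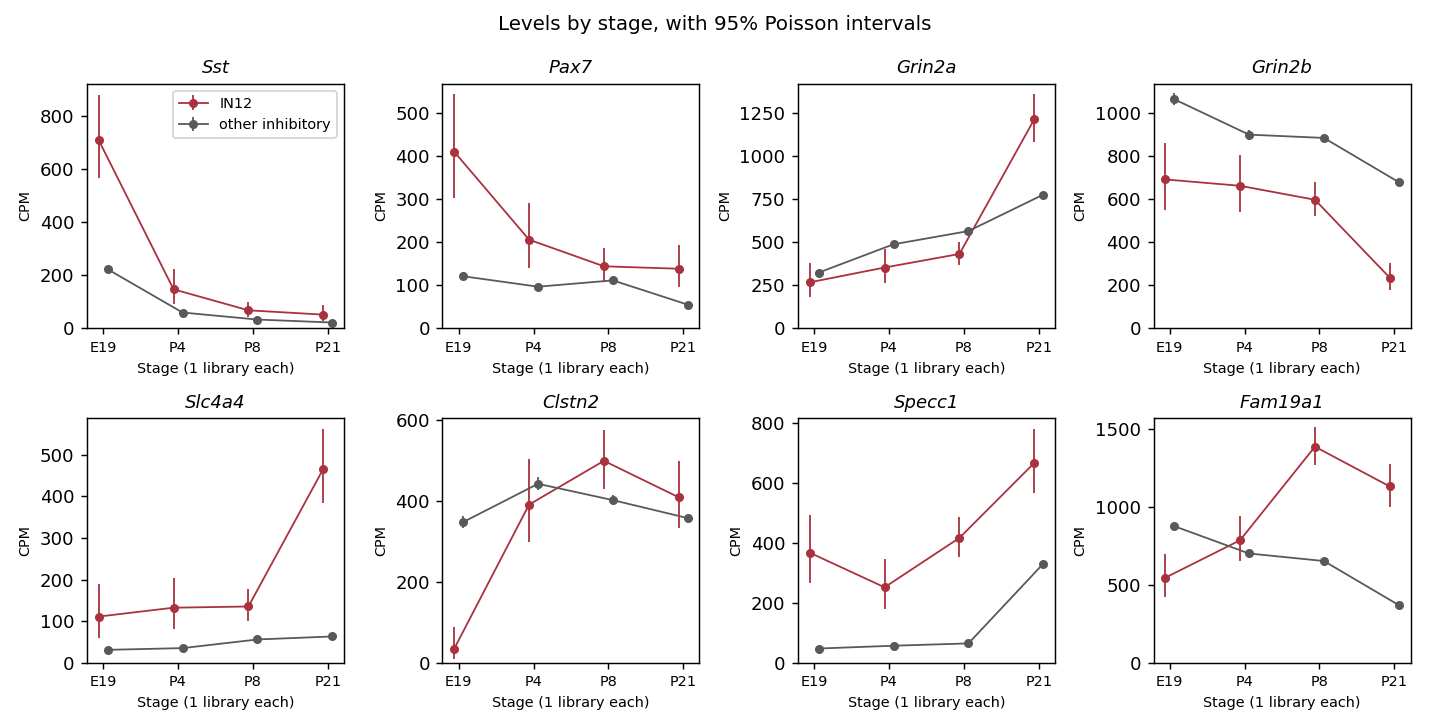
Summed CPM by stage of 8 genes in IN12 (red) and all other inhibitory neurons (grey), 1 library per stage, with 95% Poisson intervals that cover counting error only. Sst and Pax7 are highest at E19 in IN12, Grin2a, Slc4a4 and Specc1 at P21, and Fam19a1 goes up in IN12 while it goes down in the others.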

How the data were processed

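Per the labels' protocols, nuclei were captured with 10x Genomics 3′ v3 chemistry and, per the submitters' processing notes, processed with Cell Ranger 3.0.2 on mm10. Per the series' design text the reference was pre-mRNA, so intronic reads were counted. The authors deposited raw UMI counts for 31053 genes in 9724 nuclei, a table with UMI counts, percent mitochondrial UMIs and other labels (stage, class, subtype, cluster number, reference labels). The filters on nuclei and the treatment of doublets are not given in the sources used here, and no deposited percent exceeded 5. 4 columns of that table were not used. The deposited subtype was taken as given. The members and the 22 gene lists were chosen with earlier results of these data known.

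UMIs were summed per library and group and scaled to CPM. Ratios were log2 of CPM plus 5. Levels carry exact Poisson, shares Clopper-Pearson and ratios exact conditional 95% intervals. Percent called is the share of genes compared that passed the fold rule. Named genes were the 15 higher and 10 lower with the most extreme ratio in their least extreme library, the 12 largest differences each way between stages, 5 each way against the 2 nearest subtypes, and list members past 2-fold or, between stages, the 2 largest each way. Xist, Tsix, Y-linked, mitochondrial, ribosomal protein and haemoglobin genes stayed out of the ranking. Lists were counted at a mean of 50 CPM. Coordinates follow GENCODE M21. Of the 49 genes ranked between subtypes and between stages 27 overlap a gene on the other strand and 21 one on the same strand, for which shared reads are possible. Alternatives were another pseudocount (20 CPM), another floor, median-of-ratios scaling, equal weights, thinning to 2300 UMIs, and leaving out nuclei or libraries. Python 3.11.15, numpy 2.4.6, scipy 1.17.1, pandas 2.3.3 and matplotlib 3.10.9 were used, and the ratio code was tested on simulated data.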

Additional observations from a re-analysis of the deposited data

Results flagged for a closer look

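Fam19a1, a secreted neurokine of the TAFA family, was the only gene compared that was past 2-fold in opposite directions between E19 and P21. In IN12 it was 546, 787, 1389 and 1133 CPM at E19, P4, P8 and P21, a log2 ratio of P21 over E19 of 1.05 (counting interval 0.66 to 1.47). In the other inhibitory neurons it was 878, 702, 653 and 369.8 CPM, a log2 ratio of -1.24. IN12 nuclei with Fam19a1 UMIs numbered 15 of 23, 16 of 22, 40 of 44 and 18 of 22. The difference between the groups was not tested, since each stage had 1 library. The makeup of the pooled group also differed between stages, and Fam19a1 levels in its single subtypes are not given here.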

How the results depend on the processing

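Genes higher in IN12 numbered 21 to 42 and genes lower 56 to 86 over 12 other settings each, with 21 to 31 and 52 to 64 of the reported genes among them. The 21 came from leaving out, for each gene, the IN12 nucleus with most of its UMIs, a setting added after seeing the data. Leaving out a library gave 32 to 37 higher and 68 to 85 lower genes. Between stages, a floor of 50 CPM gave 741 higher and 974 lower genes. With P4 in place of E19 as the first stage, also added after seeing the data, the counts were 249 and 269, of which 164 and 164 were among the reported genes. Higher genes made up 47.7% of the stage differences on CPM, and 58.1% once median-of-ratios factors were used. The Spearman correlation with IN1 was 0.782. The log2 ratio of P21 over E19 changed sign when nuclei were thinned for Adra1a (0.36), Hpcal1 (-0.50) and Slc6a11 (0.90). With P4 as the first stage it did so for Nipal2 (-0.10), Adra1a (0.030), Chrm2 (-0.19), Flrt2 (-0.015), Gad1 (0.38), Nos1 (-1.19) and Pnoc (0.31), and Slc17a6 was 0 once nuclei with its UMIs were left out. The cause was not tested. Of 648 values of single genes between stages 620 stayed within their counting interval or spread, and of 552 between subtypes 439 did and none changed sign. The depth limit is set by 22 to 44 nuclei per library. No paired analysis was possible because each stage had 1 library and no replicate number was shared. IN12 and the other inhibitory neurons shared libraries, but they were given no test since the subtypes were clustered on these genes.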

Other observations

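Low-level genes outside the rules also differed between IN12 and the pooled other inhibitory neurons. The protocadherin gene Pcdh18 was 119, 92.6, 47.7 and 29.1 CPM in IN12 and 20.5, 13.5, 11.7 and 4.88 CPM in the other inhibitory neurons, with 14, 14, 18 and 7 UMIs behind the IN12 values. Nos1, the neuronal nitric oxide synthase, was 25.6, 159, 109 and 66.6 CPM against 31.5, 35.4, 35.4 and 39.7 CPM, and 12 of its 24 UMIs at P4 came from 1 nucleus. The calcium sensor gene Hpcal1 was 149.9 CPM in IN12 at P21 against 18.6 CPM, while at P4 the values were 46.3 and 35.1 CPM. These 3 genes were picked with their values in view.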
